A study of Mus musculus with 24 samples.

Results

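The effect of an immunocompetent against an immunodeficient host on tumor RNA was compared between 2 mouse mammary tumor lines, D2.1 and D2A1. Every tumor of the series was taken: 18 of its 24 RNA-seq samples. The study asked how dormant tumor cells persist in an immunocompetent host, and the comparison here asks which changes in tumors of immunocompetent hosts were common to both lines and which differed in size between them. D2.1 cells are described as dormant and D2A1 cells as proliferative, and both lines arose from D2 hyperplastic alveolar nodules of BALB/c mice. For each tumor, 1000000 cells were placed in the mammary fat pad of a female mouse of 8 to 12 weeks, and whole tumors were collected at about 500 mm3, so that each sample holds RNA of tumor cells and of host cells together. The hosts were BALB/c mice (BALB/cAnNTac), which are immunocompetent, or SCID-beige mice (C.B-Igh-1b/GbmsTac mice with the Prkdc scid and Lyst bg alleles), which lack T and B cells and have defective NK cells. The hosts thus differ in more than adaptive immunity. The study reports slower D2A1 growth in BALB/c than in SCID-beige mice and no such change for D2.1. With collection by size, time in the mouse may therefore differ between groups, and its part was not tested. There were 4 D2.1 tumors in BALB/c mice, 5 D2.1 tumors in SCID-beige mice, 4 D2A1 tumors in BALB/c mice and 5 D2A1 tumors in SCID-beige mice. The remaining 6 samples, 3 cultures of each line, were read only as a description of what the tumor cells express without a host.

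T cells recognise peptides held by MHC molecules through a receptor whose constant chains (Trac, Trbc2) pair with the CD3 chains (Cd3d, Cd3e, Cd3g). Activated T and NK cells secrete interferon gamma, which acts on neighbouring tumor, myeloid and stromal cells and raises their antigen presentation genes, guanylate-binding proteins, immunity-related GTPases and the chemokine Cxcl9. SCID-beige mice keep their myeloid cells, so host macrophages and neutrophils can be present in tumors of both hosts.

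The tumor libraries held 13566949 to 18355153 counts, so that 3 counts in a library, used as the floor of detection, correspond to 0.161 to 0.209 CPM, that is counts scaled to a library of 1000000. The host labels were checked on T cell genes: Cd3e was between 0.743 and 22.8 CPM in the 8 tumors from BALB/c mice and between 0 and 0.411 CPM in the 10 tumors from SCID-beige mice. The D2.1 tumors from BALB/c mice were uneven in tissue markers. Summed milk and luminal mammary genes were at 568, 15.6, 20.2 and 92.4 CPM in these 4 tumors, and summed skin epidermis genes at 71.9, 3.08, 6.97 and 189 CPM, against at most 16.3 and 7.98 CPM in the other 14 tumors. Replicates 1 and 4 carried the high values, and their part in the D2.1 results was not tested beyond leaving them out. Their omission lowered the D2.1 count of each gene list with a call there. It brought several counts to 0, among them those of B cell, type I interferon, class II, myeloid chemokine, Atf4 and Nrf2 genes. Tumor epithelium genes (9 genes summed) were at 809 to 962 CPM in BALB/c and 943 to 1763 CPM in SCID-beige mice for D2.1 tumors (ratio of means 0.737), and at 642 to 754 against 583.3 to 1064 CPM for D2A1 tumors (ratio 0.919). The hosts overlapped in both lines, and the part of these genes in the host effects was not tested.

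Among genes called, more were higher than lower in BALB/c hosts in both lines. Over all genes tested, 45.2% had a positive host effect in D2.1 and 52.5% in D2A1. In D2.1 tumors 225 genes rose in BALB/c hosts (1.4% of the 16036 genes tested) and 36 fell (0.224%), at an adjusted p under 0.05 in edgeR's quasi-likelihood test with Benjamini-Hochberg adjustment, fitted on all 18 tumors. In D2A1 tumors 205 genes rose (1.28%) and 34 fell (0.212%). Averaged over both lines, 484 genes rose (3.02%) and 54 fell (0.337%), and 205 of these 538 genes passed the threshold in neither line alone. Leaving out D2.1 BALB/c replicates 1 and 4 together reduced the D2.1 calls from 261 to 22. Krt10, a keratin of skin, was among the largest D2.1 changes (7.22, adjusted p = 0.013), and its D2.1 host effect turned to -0.64 without these 2 tumors. Their omission also left fewer D2.1 tumors to test. Median D2.1 log2 host effects moved less for some lists: T cell receptor (2.473 to 2.184), interferon gamma (1.155 to 1.204), class II (1.419 to 1.364) and Atf4 genes (-0.695 to -0.711). Medians of other lists fell more, among them B cell (2.114 to 1.318), complement (1.003 to 0.453) and skin epidermis genes (2.448 to 0.178).

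The genes called in both lines numbered 63, of which 62 rose (0.387% of genes tested) and 1, Tarm1, fell. They were 24.1% of the D2.1 calls and 26.4% of the D2A1 calls. The lines share no tumor, so each line's calls could be read in the other line's tumors. Of the 225 genes that rose in D2.1 tumors, 186 also had a positive host effect in D2A1 tumors, with a median log2 fold change of 1.88 in D2.1 and 0.87 in D2A1. Of the 205 genes that rose in D2A1 tumors, 191 were positive in D2.1 tumors, with a median of 1.70 in D2A1 and 0.96 in D2.1. The falls were shared less clearly, since 26 of the 36 genes that fell in D2.1 tumors and 14 of the 34 that fell in D2A1 tumors had the same sign in the other line, where 51.4% of all genes tested had the same sign in both. Across all genes tested, Pearson's r between the lines' log2 fold changes was 0.353, which is across genes that are not independent replicates.

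The difference between the lines' host effects was tested gene by gene as the interaction of line and host. It passed the threshold for 3 genes (0.0187%): D630003M21Rik, Crmp1 and Trac, all with the more positive host effect in D2.1 tumors. At an unadjusted p under 0.05, 608 genes were more positive in D2.1 (3.79%) and 747 in D2A1 (4.66%). Of the 198 genes called in D2.1 alone 134 had such an unadjusted p, and of the 176 called in D2A1 alone 105, genes that were chosen by 1 of the effects that make up the difference. After adjustment 3 genes passed in all. The precision of the interaction was limited: over the 48 genes called in both lines with no group at the floor, the 95% interval of the difference reached a median of 0.97 to either side on the log2 scale, and it stayed within 1 of zero for 13 genes. It excluded zero for 7 of the 48, of which Igha and Cd3e had the larger effect in D2.1 tumors and Cxcl9, Ciita, H2-Q4, H2-Q6 and H2-Q7 the larger effect in D2A1 tumors.

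**Figure D1:**
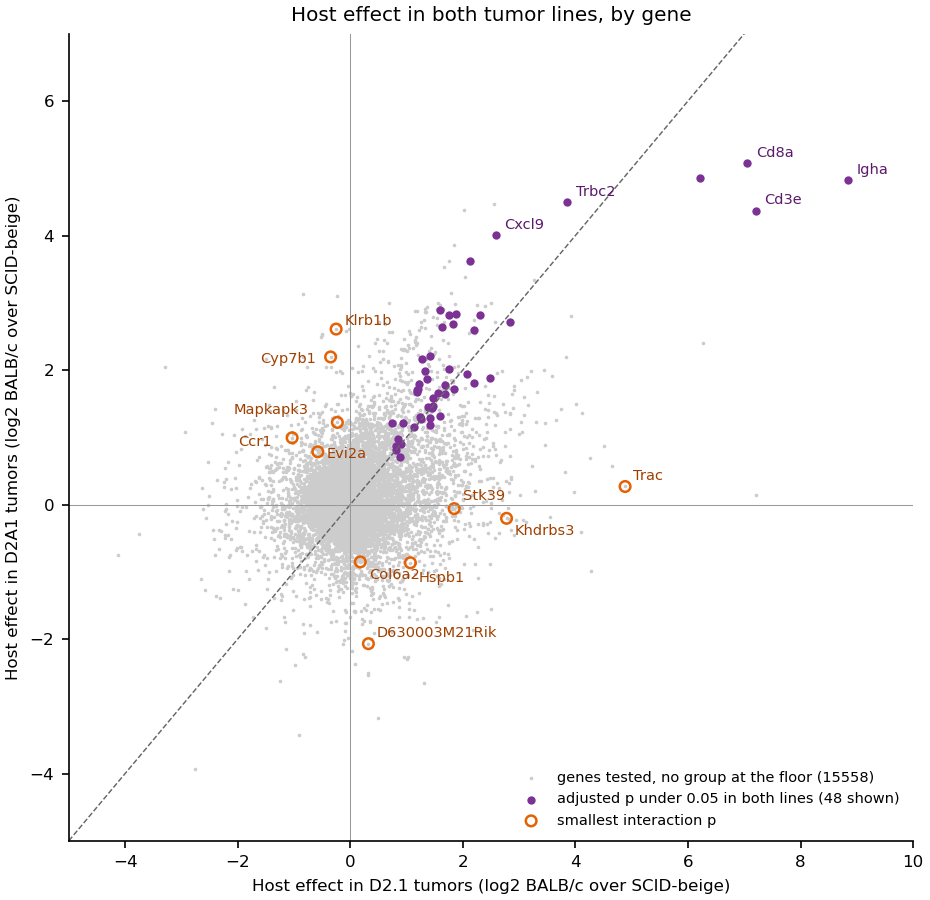
Host effect of each gene in D2.1 tumors (horizontal axis) and in D2A1 tumors (vertical axis), both as log2 of BALB/c over SCID-beige, for the 15558 genes tested with no group at the floor; the dashed line marks equal effects. Filled points are 48 of the 63 genes called in both lines, which lie to the upper right, and open circles are genes with the smallest interaction p, which lie near an axis or in opposite quadrants.

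T cell receptor genes were among the most strongly raised of the shared genes, and their levels in BALB/c hosts were higher in D2.1 tumors. Cd3e (ENSMUSG00000032093, GRCm38 chr9:44998740-45009627), a signaling chain of the T cell receptor, was at 16.9, 7.96, 22.8 and 20.7 CPM in D2.1 tumors from BALB/c mice and at 0.0614, 0.411, 0.0576, 0 and 0 CPM in those of SCID-beige mice. In D2A1 tumors it was at 3.65, 0.743, 1.03 and 2.83 CPM in BALB/c mice and at 0, 0.278, 0, 0.186 and 0 CPM in SCID-beige mice. BALB/c and SCID-beige tumors did not overlap in either line, while every D2.1 tumor of a BALB/c mouse was above every D2A1 tumor of a BALB/c mouse. The host effect was a log2 fold change of 7.21 ± 0.83 (SE) in D2.1 (adjusted p = 9.98e-05) and 4.37 ± 0.84 in D2A1 (adjusted p = 0.00898), with an interaction of 2.85 whose unadjusted p was 0.0498 and whose adjusted p was 0.591. In such whole tumors, fewer cells of a type and less RNA per cell cannot be told apart.

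Of the 28 tested genes of the T cell receptor and signaling list, 18 rose in D2.1 tumors, 9 rose in D2A1 tumors and 8 rose in both, and none fell. The fitted median log2 fold change was 2.47 in D2.1 and 1.98 in D2A1, against medians near zero over all genes tested (-0.04 and 0.02). With genes at the floor taken at their bound, a lower limit, the medians were 2.47 and 1.47. Over the 21 genes with no group at the floor they were 1.89 and 1.29. The genes called in both lines included Cd3d, Cd3e, Cd3g, Cd6, Cd27 and Trbc2. Cd3d and Cd3g, the other CD3 chains, were at the floor in D2A1 tumors from SCID-beige mice, so that their D2A1 host effects were at least 5.18-fold and at least 12.3-fold higher in BALB/c hosts. Sh2d2a, an adaptor of T cell signaling, was called in D2A1 tumors only, at 2.90 (adjusted p = 0.0435) against 1.66 in D2.1 (adjusted p = 0.181). In BALB/c hosts all 28 genes were higher in D2.1 than in D2A1 tumors past the threshold, with a median log2 difference of 3.33, and in SCID-beige hosts 16 were higher and 1 was lower, with a median of 2.36. Leaving out 1 tumor at a time moved the number that rose in D2.1 between 12 (without D2.1 BALB/c replicate 4) and 20 (without D2.1 BALB/c replicate 2), and leaving out D2.1 BALB/c replicates 1 and 4 together brought it to 7.

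The list split over the interaction. At an unadjusted p under 0.05, 11 of its 28 genes were more positive in D2.1 and 2 in D2A1, and both of the latter had a D2A1 group at the floor. Zap70, the kinase that binds phosphorylated CD3 chains, was at 16.8, 12.7, 23.98 and 19.3 CPM in D2.1 tumors from BALB/c mice and at 4.67, 8.51, 2.48, 3.58 and 5.29 CPM in those of SCID-beige mice. In D2A1 tumors Zap70 was at 5.28, 2.04, 2.66 and 4.17 CPM in BALB/c mice and at 8.60, 4.52, 4.74, 3.34 and 3.97 CPM in SCID-beige mice, so the hosts separated in D2.1 and overlapped in D2A1. The host effects of Zap70 were 1.89 (adjusted p = 0.0117) and -0.51 (adjusted p = 0.865), and the interaction was 2.40 with a 95% interval of 1.32 to 3.48 (unadjusted p = 0.000172, adjusted p = 0.12). Cd4, the coreceptor of helper and regulatory T cells that some myeloid cells also carry, rose in D2.1 tumors by 1.60 (adjusted p = 0.0472) and had -0.37 in D2A1 tumors (adjusted p = 0.959), with an interaction of 1.97 (95% interval 0.72 to 3.23, adjusted p = 0.344). Summed over its 28 genes, the levels in D2.1 tumors were 539, 355, 634 and 700 CPM in BALB/c mice against 137 to 245 CPM in SCID-beige mice, while in D2A1 tumors they were 148, 104, 111 and 135 CPM against 98.0 to 142 CPM. The sum therefore rose by 369 ± 77.2 CPM (SE of the difference) in D2.1 and moved by 6.90 ± 12.8 CPM in D2A1, where the sums of both hosts overlapped. SCID-beige mice lack T cells, so this sum does not measure T cells alone. Summed over 7 T cell and regulatory T cell genes that the study names, D2A1 tumors held 6.69 to 22.3 CPM in BALB/c mice. In SCID-beige mice they held 0.138 to 0.742 CPM. For D2.1 tumors these values were 49.8 to 158 and 0.716 to 2.93 CPM.

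The coreceptor of cytotoxic T cells was raised in both lines. Cd8a (ENSMUSG00000053977, GRCm38 chr6:71373427-71379173) was at 15.6, 9.89, 47.4 and 27.5 CPM in D2.1 tumors from BALB/c mice and at 0 to 0.441 CPM in those of SCID-beige mice. In D2A1 tumors Cd8a was at 8.53, 1.55, 1.09 and 5.89 CPM in BALB/c mice and at 0 to 0.278 CPM in SCID-beige mice. No overlap of hosts was seen in either line, with log2 fold changes of 7.05 ± 0.85 (adjusted p = 0.00015) and 5.08 ± 0.87 (adjusted p = 0.00361) and an interaction of 1.98 (95% interval -0.88 to 4.84), which did not separate the lines. Cd8b1, its partner chain, rose by 6.21 and 4.85. Of the 20 tested genes of the CD8 T cell and cytotoxic effector list, 4 rose in D2.1 (2 without D2.1 BALB/c replicates 1 and 4) and 5 in D2A1. The granule proteins did not pass: Gzmb had 0.11 in D2.1 (adjusted p = 0.972) and 1.27 in D2A1 (adjusted p = 0.392), and Prf1, which forms pores in target membranes, had 0.91 and 2.31 (adjusted p = 0.611 and 0.215).

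Ifng, the gene of interferon gamma itself, was at 0.483, 1.03, 2.73 and 1.86 CPM in D2.1 tumors from BALB/c mice and at 0.0614, 0.411, 0.0576, 0.179 and 0.882 CPM in those of SCID-beige mice. In D2A1 tumors Ifng was at 0.522, 0.372, 0.0604 and 1.06 CPM in BALB/c mice and at 0 in all 5 tumors from SCID-beige mice. Its host effect passed in D2A1 only (adjusted p = 0.0428, at least 2.40-fold higher in BALB/c), and in D2.1 tumors the hosts overlapped (adjusted p = 0.257). Tbx21, the T-bet factor of cytotoxic and type 1 helper lymphocytes, showed the same arrangement: 5.85, 7.12, 10.1 and 8.04 CPM against 1.09 to 8.39 CPM in D2.1 tumors, and 0.986, 0.248, 0.544 and 0.833 CPM against 0 to 0.0619 CPM in D2A1 tumors. The Tbx21 host effect passed in D2A1 tumors (adjusted p = 0.00647, at least 3.12-fold higher) and not in D2.1 tumors (1.04, adjusted p = 0.414), and its level in D2.1 tumors from SCID-beige mice was above every D2A1 tumor. No NK cell receptor gene of 10 tested rose in D2.1 tumors, and 1 rose in D2A1 tumors, Klrb1b, which is described with the line-specific genes because cultured D2.1 cells express it.

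Regulatory T cell and checkpoint genes rose in both lines, 8 of 18 in D2.1 tumors and 4 of 18 in D2A1 tumors. Foxp3 (ENSMUSG00000039521, GRCm38 chrX:7573644-7595245), the factor that defines regulatory T cells, was at 7.51, 6.39, 8.13 and 7.59 CPM in D2.1 tumors from BALB/c mice and at 0 to 0.315 CPM in those of SCID-beige mice. In D2A1 tumors it was at 1.16, 0.867, 0.544 and 1.94 CPM in BALB/c mice and at 0 to 0.14 CPM in SCID-beige mice. Neither line's hosts overlapped. The Foxp3 host effect was 5.99 ± 0.68 on the log2 scale in D2.1 tumors (adjusted p = 8.93e-05) and at least 5.39-fold in D2A1 tumors, whose SCID-beige group was at the floor (adjusted p = 0.0107). In BALB/c hosts Foxp3 was higher in D2.1 than in D2A1 tumors by 2.70 on the log2 scale (adjusted p = 0.00173). Ctla4, a checkpoint receptor of regulatory and activated T cells, was at 3.81, 0.724, 2.09 and 2.70 CPM in D2.1 tumors and at 0.754, 0.0619, 0.362 and 0.833 CPM in D2A1 tumors from BALB/c mice, and at the floor in SCID-beige mice of both lines. In BALB/c hosts its level exceeded the floor by at least 12.3-fold in D2.1 and by at least 2.40-fold in D2A1 tumors (adjusted p = 0.00304 and 0.0175). Icos was the remaining gene called in both lines. Pdcd1, Lag3 and Tigit, receptors that restrain T cells, passed in D2.1 tumors at 3.93, 1.39 and 1.67 and had 2.81, 0.76 and 1.13 in D2A1 tumors (adjusted p = 0.0879, 0.335 and 0.13). No interaction in the list passed in edgeR's test after adjustment, and only that of Foxp3, a gene with a group at the floor, had an unadjusted p under 0.05. The 8 genes that rose in D2.1 tumors became 3 without D2.1 BALB/c replicate 3 and 2 without replicates 1 and 4 of that group, and the 4 in D2A1 tumors became 1 without D2A1 BALB/c replicate 4.

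Some immunoglobulin genes rose in both lines. Igha (ENSMUSG00000095079, GRCm38 chr12:113254830-113260236), the constant chain of IgA, was at 59.6, 36.0, 194 and 98.4 CPM in D2.1 tumors and at 10.3, 2.54, 6.46 and 2.61 CPM in D2A1 tumors from BALB/c mice. In SCID-beige mice it was at 0 to 0.461 CPM in D2.1 tumors and at 0 to 0.315 CPM in D2A1 tumors, and the hosts did not overlap. The log2 fold changes were 8.84 ± 0.73 (adjusted p = 2.92e-06) and 4.83 ± 0.72 (adjusted p = 0.00123), with an interaction of 4.01 (95% interval 1.44 to 6.59, unadjusted p = 0.00401, adjusted p = 0.344). Jchain, which joins IgA and IgM units, and Igkc, the kappa constant chain, were also called in both lines and were at least 8.04-fold and at least 27.8-fold higher in D2A1 tumors of BALB/c hosts. Of 11 plasma cell and immunoglobulin genes, 7 rose in D2.1 (4 without D2.1 BALB/c replicates 1 and 4) and 3 in D2A1. Summed over 17 listed genes, the rise was 494 ± 179 CPM (SE of the difference) in D2.1 and 25.7 ± 15.1 CPM in D2A1. In D2A1 tumors the hosts overlapped, at 239 to 265 CPM in BALB/c and 175 to 256 CPM in SCID-beige mice. Over the 5 genes with no group at the floor, the median log2 fold changes were 0.06 in D2.1 and 0.73 in D2A1. Ighg1, Iglv1, Iglc1 and Ighg2b led the genes called in D2.1 alone, and all had a group at the floor in D2A1 tumors. Immunoglobulin segments share sequence, and the counting of shared reads is not given in the sources used here, so single segments are uncertain. Of 12 B cell genes, 4 rose in D2.1 tumors, a number that fell to 0 without D2.1 BALB/c replicate 4 and rose to 12 without replicate 2 of that group, and 1 (Ighm) rose in D2A1 tumors.

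**Figure D2:**
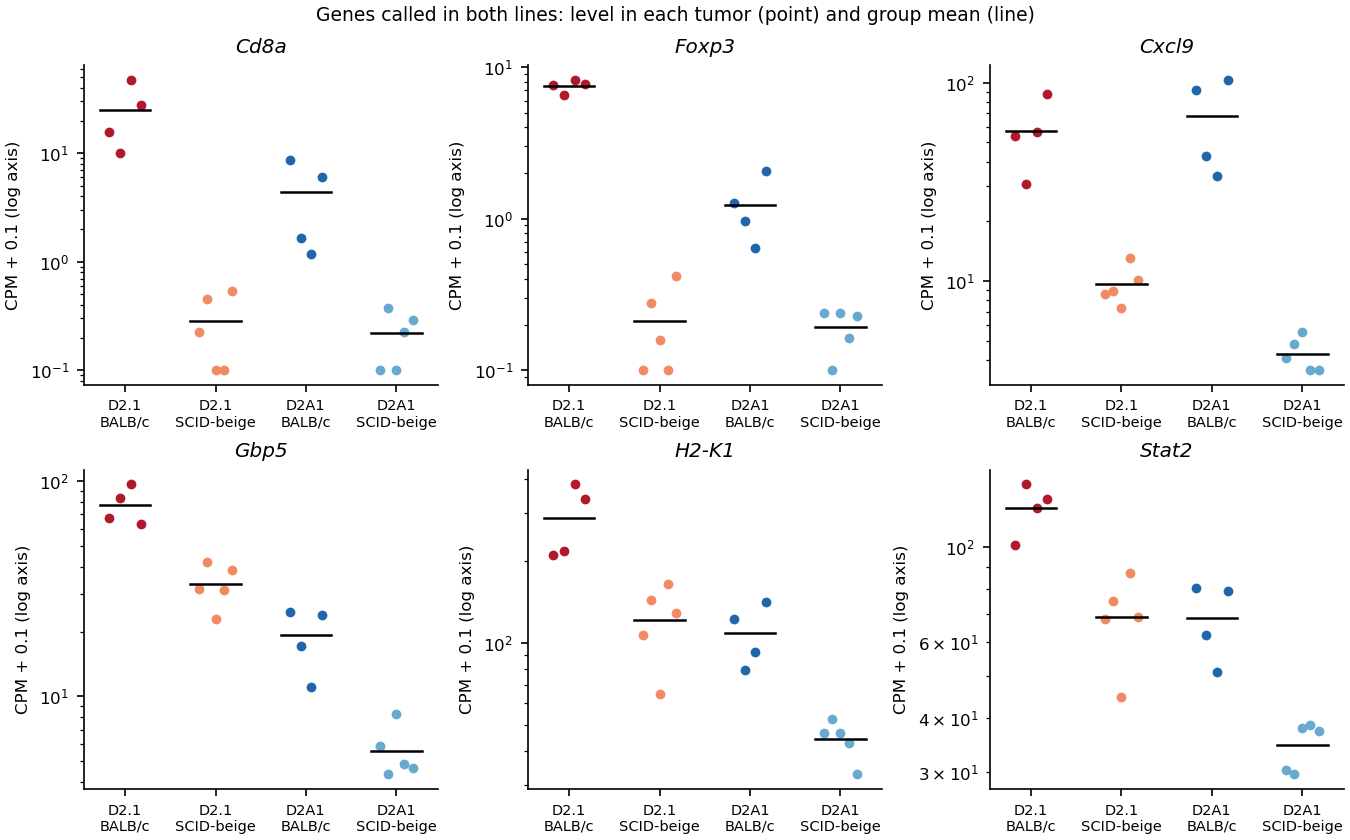
CPM plus a small constant on a log axis for 6 genes called in both lines, with 1 point a tumor and a line at each group mean (4 BALB/c and 5 SCID-beige tumors a line). Cd8a and Foxp3 in BALB/c hosts are higher in D2.1 tumors, Cxcl9 reaches similar levels in both lines there (30.8 to 87.9 and 33.6 to 103 CPM), and Gbp5, H2-K1 and Stat2 are higher in D2.1 tumors in both hosts.

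Interferon gamma response genes rose in both lines, and here the fold change was larger in D2A1 tumors. Of 40 genes tested, 11 rose in D2.1 and 26 in D2A1, and the 11 were among the 26. The median log2 fold change was 1.16 in D2.1 and 1.61 in D2A1. The point estimate of the host effect was larger in D2A1 for 37 of the 40 genes, and 10 of those differences had an unadjusted p under 0.05, against 0 in the other direction, while none passed after adjustment. The median difference was -0.54 and stayed between -0.78 and -0.37 when each tumor was left out in turn. The 11 genes called in D2.1 became 2 without D2.1 BALB/c replicate 3, 1 without replicates 1 and 4 of that group, and 15 without its replicate 2. The 26 in D2A1 became 15 without D2A1 BALB/c replicate 4. DESeq2 in place of edgeR called 22 in D2.1 and 27 in D2A1, so the gap between these counts depends on the test.

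Cxcl9 (ENSMUSG00000029417, GRCm38 chr5:92321347-92328079), a chemokine that draws Cxcr3-bearing lymphocytes, was at 54.0, 30.8, 56.4 and 87.9 CPM in D2.1 tumors from BALB/c mice and at 8.54, 8.86, 7.26, 13.0 and 10.1 CPM in those of SCID-beige mice. In D2A1 tumors Cxcl9 was at 91.4, 42.6, 33.6 and 103 CPM in BALB/c mice and at 3.99, 4.72, 5.44, 3.46 and 3.47 CPM in SCID-beige mice. Host groups were separate in both lines, and among SCID-beige tumors every D2.1 tumor was above every D2A1 tumor. The host effect was 2.58 ± 0.32 in D2.1 (adjusted p = 0.000231) and 4.004 ± 0.34 in D2A1 (adjusted p = 5.63e-06), with an interaction of -1.42 (95% interval -2.36 to -0.48, unadjusted p = 0.00529, adjusted p = 0.352). In SCID-beige hosts Cxcl9 was higher in D2.1 than in D2A1 tumors by 1.18 on the log2 scale (adjusted p = 0.00654), and in BALB/c hosts the difference was -0.24 (adjusted p = 0.614).

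That arrangement was common in the list. In SCID-beige hosts 21 of the 40 genes were higher in D2.1 than in D2A1 tumors and none was lower, with a median log2 difference of 0.81. In BALB/c hosts 9 were higher and 2 lower, with a median of 0.43. Gbp5, a guanylate-binding protein, was at 66.9, 83.2, 96.8 and 63.2 CPM against 31.5, 41.8, 22.7, 30.9 and 38.6 CPM in D2.1 tumors, and at 24.6, 17.03, 10.9 and 23.9 CPM against 5.78, 4.24, 8.16, 4.76 and 4.54 CPM in D2A1 tumors. For Gbp5 the hosts did not overlap in either line, and the D2.1 tumors from SCID-beige mice were nearly all above the D2A1 tumors from BALB/c mice. Its host effects were 1.23 and 1.80 (adjusted p = 0.013 and 0.000896). Genes called in D2A1 alone with the largest changes included Tgtp1, an immunity-related GTPase (3.62 against 1.76 in D2.1), Tlr12, a receptor of innate immunity (4.38 against 2.02), and Tbx21, Gimap7 and Gm47015, which had D2A1 groups at the floor. Serpina3g, a protease inhibitor, was among the genes furthest apart, at 0.69 in D2.1 (adjusted p = 0.518) and 2.997 in D2A1 (adjusted p = 0.000896), with an interaction of -2.30 (unadjusted p = 0.000747). Nlrc5, which activates MHC class I genes, had 1.56 (adjusted p = 0.0978) and 2.999 (adjusted p = 0.00211). Other genes had nearly the same effect in both lines: the immunity-related GTPases Igtp (1.68 and 1.64), Irgm2 (1.46 and 1.59) and Ifi47 (1.26 and 1.27) were called in both.

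On a linear scale the order of the estimates of the lines changed. Summed over the 42 listed genes found in the table, the levels were 3112, 2924, 4271 and 3534 CPM in D2.1 tumors from BALB/c mice against 1727 to 2226 CPM in SCID-beige mice, a rise of 1512 ± 315 CPM and a ratio of means of 1.78. In D2A1 tumors they were 3112, 2010, 1552 and 3089 CPM against 949 to 1174 CPM, a rise of 1335 ± 394 CPM and a ratio of 2.21. The difference in CPM was thus within its error between the lines while the ratio was larger in D2A1.

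The promoters of these genes were read for the letters that interferon-activated factors bind, because 11 of the genes called in both lines were of this list. GAS (TTCNNNGAA) is the interferon gamma-activated site, and the core of the ISRE was searched as GAAANNGAA, both on either strand in the 250 bases before each start in RefSeq (GRCm38.p6). Of the 62 genes that rose in both lines, 42 matched an entry: 7 held a GAS match (16.7%), 12 an ISRE core match (28.6%) and 15 either (35.7%), against 7.23%, 7.79% and 14.1% of the 11371 tested genes with an entry. Among the 27 matched genes of the interferon gamma list, 40.7% held a GAS match and 48.1% an ISRE core match, and among the 17 matched T cell receptor genes 17.6% and 5.88%. A match is a description of letters and no measure of binding. The windows below, printed 5′ to 3′ on the gene's strand with matches in capitals, were chosen from shared genes with a match. ISRE core matches of Stat2, B2m, Ctla4, Adgrg5, H2-T22, Jaml and Psd4 are not printed. The same holds for GAS matches of Cd3d, Rasal3 and 1 of 2 Foxp3 windows. Cd3e, Cd8a, H2-K1, Tap1 and Ifi47 were among the genes that held neither:
Igtp chr11:58199306-58199555 (+): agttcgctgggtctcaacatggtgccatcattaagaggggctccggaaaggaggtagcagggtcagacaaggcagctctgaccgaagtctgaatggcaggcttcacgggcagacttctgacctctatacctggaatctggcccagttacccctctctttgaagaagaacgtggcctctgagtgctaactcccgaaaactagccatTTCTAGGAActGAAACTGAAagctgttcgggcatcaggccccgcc
Irgm2 chr11:58214727-58214976 (+): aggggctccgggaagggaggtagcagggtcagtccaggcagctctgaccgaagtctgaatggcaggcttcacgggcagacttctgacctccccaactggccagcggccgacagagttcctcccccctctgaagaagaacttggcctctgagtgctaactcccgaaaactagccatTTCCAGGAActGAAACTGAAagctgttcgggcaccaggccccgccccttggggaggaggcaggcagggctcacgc
Tgtp2 chr11:49064213-49064462 (-): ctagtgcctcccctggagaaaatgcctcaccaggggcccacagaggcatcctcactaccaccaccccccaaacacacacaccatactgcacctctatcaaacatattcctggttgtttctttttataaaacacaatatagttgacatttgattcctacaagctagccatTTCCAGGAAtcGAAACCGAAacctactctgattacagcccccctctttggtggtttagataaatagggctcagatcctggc
Gbp5 chr3:142496684-142496933 (+): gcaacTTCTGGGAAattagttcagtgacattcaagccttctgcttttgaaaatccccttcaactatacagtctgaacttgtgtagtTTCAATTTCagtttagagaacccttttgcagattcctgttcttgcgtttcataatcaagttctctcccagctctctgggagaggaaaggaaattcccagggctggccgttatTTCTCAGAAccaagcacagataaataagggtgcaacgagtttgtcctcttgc
Cxcl9 chr5:92328080-92328329 (-): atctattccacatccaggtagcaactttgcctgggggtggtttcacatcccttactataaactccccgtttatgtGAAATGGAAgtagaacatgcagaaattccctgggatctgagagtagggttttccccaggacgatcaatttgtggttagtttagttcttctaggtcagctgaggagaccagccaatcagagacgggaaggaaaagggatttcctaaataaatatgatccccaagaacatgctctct

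In Igtp, Irgm2 and Tgtp2 a GAS match lay just upstream of an ISRE core match, starting 45 and 34 bases before the start in Igtp, 75 and 64 in Irgm2 and 81 and 70 in Tgtp2. Igtp and Irgm2 are neighbours whose windows share much of their sequence, so they are not independent examples. In Gbp5 the ISRE core letters stand on the opposite strand, 164 to 156 bases before the start, between a pair of GAS matches at 245 and 52 bases. In Cxcl9 the ISRE core match began 175 bases before the start and no GAS match was found in the window. Igtp was at 104, 85.5, 181 and 164 CPM in D2.1 tumors from BALB/c mice against 16.99 to 75.6 CPM in SCID-beige mice, and at 104, 56.9, 51.3 and 120.5 CPM in D2A1 tumors from BALB/c mice against 19.5 to 34.6 CPM. Its hosts did not overlap in either line, and neither did those of Tgtp2, at 32.8, 32.3, 72.2 and 55.8 CPM against 7.603 to 19.3 CPM in D2.1 tumors and 47.8, 26.7, 13.2 and 54.4 CPM against 3.61 to 8.37 CPM in D2A1 tumors.

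Genes of the type I interferon list, which share many elements with the former, moved little. Of 38 tested, 1 rose in D2.1 and 3 in D2A1, and the medians were 0.27 and 0.42. Stat2, a subunit of the factor that binds the ISRE, was the gene called in both. It was at 101, 140, 123 and 129 CPM against 68.0, 74.7, 44.8, 86.9 and 68.6 CPM in D2.1 tumors, and at 80.4, 62.5, 51.0 and 79.0 CPM against 30.1, 29.5, 37.7, 38.4 and 37.2 CPM in D2A1 tumors. The hosts did not overlap in either line, and the effects of 0.85 ± 0.18 and 0.98 ± 0.18 (adjusted p = 0.0203 and 0.00647) differed by -0.13, with a 95% interval of -0.67 to 0.41. Isg15, a ubiquitin-like protein raised by type I interferon, had 0.13 and 0.31 (adjusted p = 0.949 and 0.959).

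MHC class I genes rose in both lines. Of 28 tested genes, 12 rose in D2.1, 14 rose in D2A1 and the 12 were among the 14, with medians of 1.10 and 1.06 and a median difference of -0.10. H2-K1 (ENSMUSG00000061232, GRCm38 chr17:33996017-34000347), a classical class I heavy chain, was at 210.9, 217.3, 383 and 338 CPM against 107, 144, 65.0, 165 and 128 CPM in D2.1 tumors, and at 123, 79.6, 92.6 and 142 CPM against 46.7, 52.7, 46.5, 43.0 and 32.8 CPM in D2A1 tumors. The hosts did not overlap in either line, and the D2.1 tumors were higher in each host. The log2 fold changes were 1.24 ± 0.24 (adjusted p = 0.013) and 1.30 ± 0.25 (adjusted p = 0.00804), and the interaction of -0.06 had a 95% interval of -0.79 to 0.66. B2m, the light chain of class I molecules, rose by 0.94 and 1.21, with an interval of the difference from -0.94 to 0.39, and Tap1, which carries peptides into the endoplasmic reticulum, rose by 1.36 and 1.87. At an unadjusted p under 0.05, 4 interactions of the list were larger in D2A1, those of Nlrc5 and of the nonclassical heavy chains H2-Q4, H2-Q6 and H2-Q7, and 1 was larger in D2.1, that of Tapbpl, and none passed after adjustment. The effects of H2-Q7 were 2.13 and 3.62 (interaction unadjusted p = 0.0366 and adjusted p = 0.547). The class I genes are near-identical copies and the mice carry another haplotype than the reference strain, so reads may have been split between them, and single members are uncertain. The 12 genes called in D2.1 became 2 without D2.1 BALB/c replicate 3, 1 without replicates 1 and 4 of that group, and 18 without its replicate 2. DESeq2 in place of edgeR called 20 in D2.1 and 14 in D2A1.

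MHC class II genes, which antigen-presenting cells use to show peptides to helper T cells, had larger fold changes in D2A1 tumors. Of 10 tested, 1 (Ciita) rose in D2.1 (0 without D2.1 BALB/c replicates 1 and 4) and 7 rose in D2A1, with medians of 1.42 and 2.68. Without D2.1 BALB/c replicate 2 the D2.1 count was 5. DESeq2 in place of edgeR called 6 in D2.1 and 8 in D2A1. Cd74, the invariant chain of class II molecules, was at 3258, 2256, 3764 and 3357 CPM in D2.1 tumors from BALB/c mice and at 1748, 1881, 757, 669 and 1060 CPM in those of SCID-beige mice. In D2A1 tumors Cd74 was at 1158, 519, 684 and 2243 CPM in BALB/c mice and at 141, 186, 180, 127 and 115 CPM in SCID-beige mice. Again both lines separated the hosts, and the SCID-beige levels were several times higher in D2.1 tumors. The host effects were 1.37 ± 0.36 in D2.1 (adjusted p = 0.0603) and 2.94 ± 0.38 in D2A1 (adjusted p = 0.000878), with an interaction of -1.57 (95% interval -2.65 to -0.50, unadjusted p = 0.00634, adjusted p = 0.369). Ciita, the transactivator of class II genes, was called in both lines, at 1.59 (adjusted p = 0.0495) and 2.89 (adjusted p = 0.00123). At an unadjusted p under 0.05, 5 of the 10 interactions were larger in D2A1 and 0 in D2.1. Without D2A1 BALB/c replicate 4, which had the highest class II levels of its group, 6 class II genes were called in D2.1 tumors, and the median difference over all single-tumor omissions ran from -1.53 to -0.69.

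Which line had the larger estimate in class II genes depended on the scale. No class II interaction passed after adjustment, and the difference of the CPM rises was not tested. Summed over 11 listed genes, the levels were 4437, 3066, 5463 and 4734 CPM against 2378, 2646, 1011, 890 and 1468 CPM in D2.1 tumors, and 1623, 712, 977 and 3188 CPM against 237, 307, 273, 216.8 and 179 CPM in D2A1 tumors. The ratio of means was 2.64 in D2.1 and 6.70 in D2A1, while the rise in CPM was 2746 ± 615 in D2.1 and 1382 ± 556 in D2A1. In SCID-beige hosts 7 of the 10 genes were higher in D2.1 than in D2A1 tumors (median log2 difference 2.84), and in BALB/c hosts also 7 (median 1.55).

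**Figure D3:**
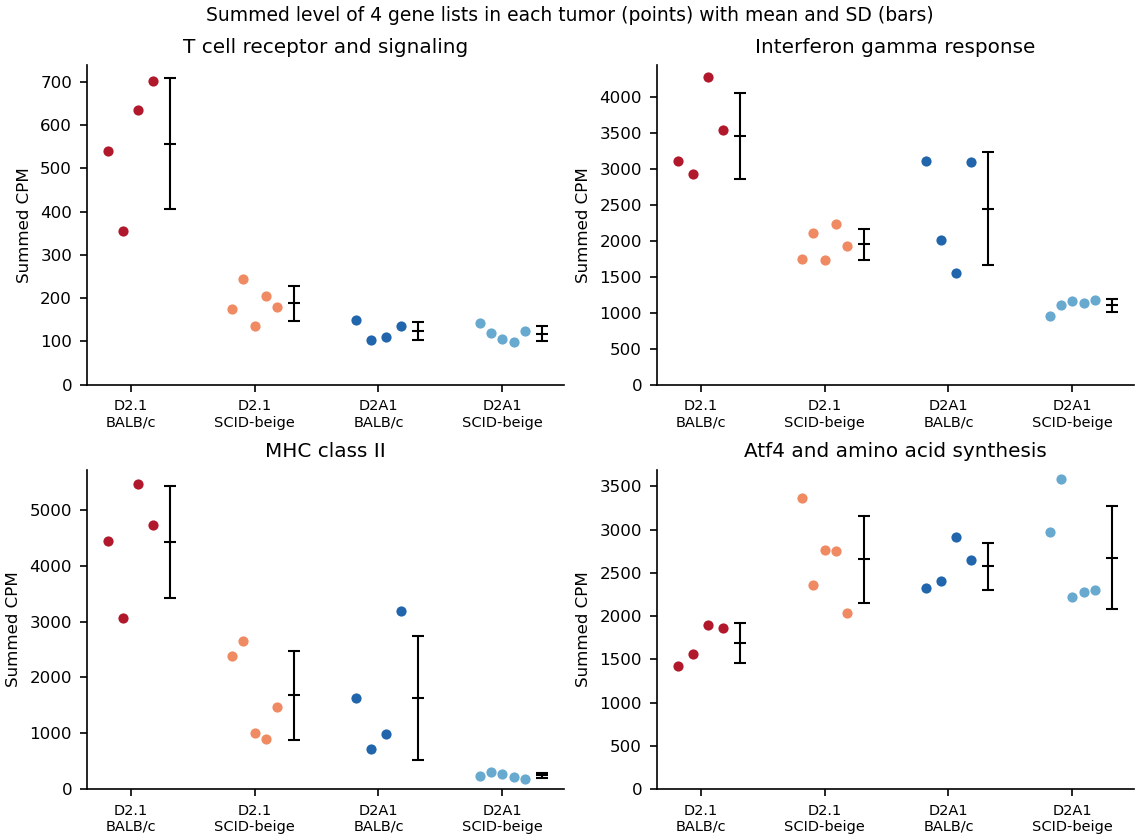
Summed CPM of T cell receptor, interferon gamma, class II and Atf4 genes in each tumor (points), on a linear axis. Bars give the group mean and SD. Class II and interferon gamma genes start from a higher level in D2.1 tumors from SCID-beige mice (890 to 2646 and 1727 to 2226 CPM) than in D2A1 tumors of the same host (179 to 307 and 949 to 1174 CPM). The summed T cell receptor and signaling genes separate the hosts in D2.1 tumors and overlap in D2A1 tumors. That sum was 98.0 to 142 CPM in D2A1 tumors from SCID-beige mice, which lack T cells.

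The 3 genes past the threshold for the interaction differed in pattern. D630003M21Rik passed under 19 of 24 alternatives, and Crmp1 and Trac under 16 each, with the highest adjusted p at 0.135, 0.186 and 0.216. D630003M21Rik (ENSMUSG00000037813, GRCm38 chr2:158182533-158229222) was at 225, 290, 268 and 258 CPM in D2.1 tumors from BALB/c mice and at 234, 275, 207, 96.2 and 228 CPM in those of SCID-beige mice. In D2A1 tumors it was at 5.45, 6.44, 10.1 and 4.55 CPM in BALB/c mice and at 22.7, 26.3, 32.9, 26.7 and 30.5 CPM in SCID-beige mice. The hosts overlapped in D2.1 tumors and separated in D2A1 tumors, where the BALB/c tumors were lower. The effects were 0.32 (adjusted p = 0.673) and -2.07 ± 0.26 (adjusted p = 0.000878), and the interaction was 2.39 (95% interval 1.66 to 3.12, unadjusted p = 1.5e-06, adjusted p = 0.0173).

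Crmp1 (ENSMUSG00000029121, GRCm38 chr5:37241940-37292133), a collapsin response mediator known from axon guidance, was at 1.82, 1.63, 2.15 and 2.31 CPM in D2.1 tumors from BALB/c mice and at 0 to 0.063 CPM in those of SCID-beige mice, at least 10.5-fold lower against the floor. In D2A1 tumors it was at 0.522, 1.36, 0.725 and 0.666 CPM in BALB/c mice and at 0.275, 2.92, 1.53, 0.619 and 1.32 CPM in SCID-beige mice, where the hosts overlapped (-0.70, adjusted p = 0.907). The fitted interaction of 6.67 (unadjusted p = 3.09e-06, adjusted p = 0.0173) depends on how zeros are treated and bounds nothing.

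Trac (ENSMUSG00000076928, GRCm38 chr14:54220521-54224206), the constant region of the T cell receptor alpha chain, was at 10.5, 5.73, 15.8 and 18.4 CPM in D2.1 tumors from BALB/c mice and at 0.922, 0.528, 0.288, 0.358 and 0 CPM in those of SCID-beige mice. In D2A1 tumors Trac was at 5.16, 2.54, 3.99 and 3.05 CPM in BALB/c mice and at 3.85, 2.57, 3.70, 2.60 and 2.59 CPM in SCID-beige mice. Trac thus separated the hosts in D2.1 tumors and overlapped in D2A1 tumors, whose SCID-beige level was above that of the D2.1 tumors of the same host by 2.84 on the log2 scale (adjusted p = 0.000232). Its effects were 4.88 ± 0.54 (adjusted p = 7.8e-05) and 0.27 ± 0.47 (adjusted p = 0.976), and the interaction was 4.61 (95% interval 3.12 to 6.11, adjusted p = 0.0173). Trbc2, the constant region of the beta chain, behaved otherwise: it rose in both lines, by 3.86 and 4.49, and its interaction of -0.63 had an interval of -2.66 to 1.39. Cultured D2A1 cells, in which T cells are absent by design, held Trac at 1.85, 0.340 and 0.0533 CPM, and cultured D2.1 cells at 0.109 to 0.177 CPM. The part of tumor cell reads in the D2A1 level of Trac was not tested.

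**Figure D4:**
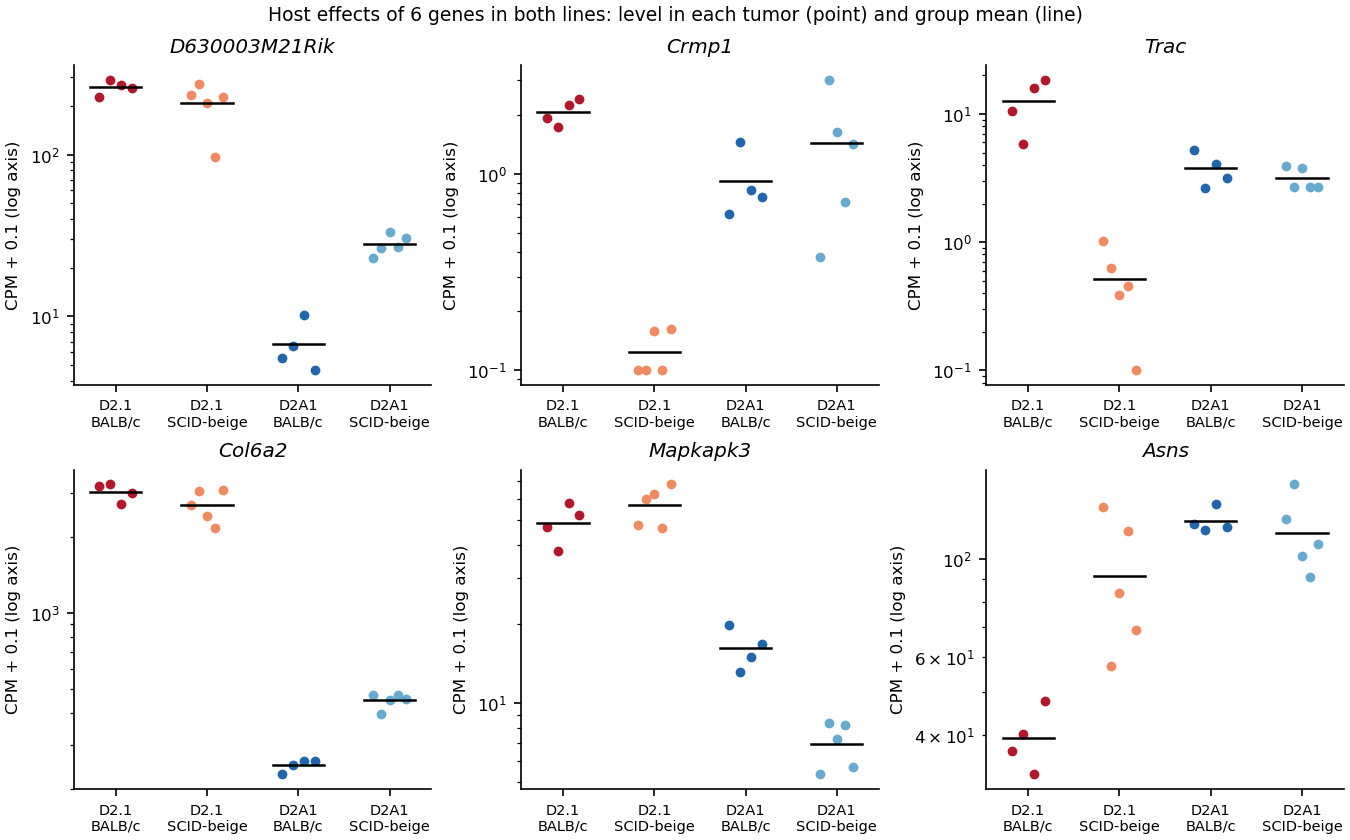
CPM in each tumor (points) and group means (lines) for 6 genes, on log axes: D630003M21Rik, Crmp1 and Trac, which passed the threshold for the interaction in edgeR's test, and Col6a2, Mapkapk3 and Asns, which did not pass in that test. In D2A1 tumors D630003M21Rik and Col6a2 are lower and Mapkapk3 higher in BALB/c hosts, and in D2.1 tumors Crmp1 and Trac are higher and Asns lower there.

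Among well-expressed protein-coding genes, those next in order of interaction p had adjusted p values of 0.0586 to 0.12 in edgeR's test and so did not pass. These calls depend on the test. With DESeq2, Col6a2, Khdrbs3, Hspb1, Stk39, Mapkapk3, Cyp7b1, Klrb1b, Evi2a and Ccr1 passed (adjusted p of 3.88e-07 to 0.0042). Zap70, Cxcr6 and Asns also passed with DESeq2 (adjusted p = 0.00143, 0.00111 and 0.0228). Col6a2 (GRCm38 chr10:76595762-76623630), a chain of collagen VI, was at 3190, 3251, 2701 and 2983 CPM against 2164 to 3073 CPM in D2.1 tumors and at 228, 249, 258 and 259 CPM against 470, 396, 453, 470 and 454 CPM in D2A1 tumors. It fell by 0.85 in D2A1 tumors of BALB/c hosts (adjusted p = 0.00144), where every BALB/c tumor was below every SCID-beige tumor, and had 0.18 in D2.1 (adjusted p = 0.657), with an interaction of 1.03 (95% interval 0.65 to 1.41, adjusted p = 0.0586). Col6a1, the partner chain, fell by 0.78 in D2A1 tumors (adjusted p = 0.00625). These were the only members of 28 collagen and matrix genes that were called, and 8 of the 28 had an interaction at an unadjusted p under 0.05, all more positive in D2.1. Adipocyte genes, summed, were at 74.5 to 1344 CPM in D2.1 and 137 to 581.1 CPM in D2A1 tumors from BALB/c mice, against 18.9 to 262 and 78.1 to 354 CPM in SCID-beige mice, and their part in the matrix values was not tested.

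Khdrbs3, an RNA-binding protein, and Stk39, a kinase of ion transport, rose in D2.1 tumors of BALB/c hosts by 2.78 and 1.85 (adjusted p = 0.00114 and 0.00173) and overlapped between hosts in D2A1 tumors (-0.20 and -0.06, adjusted p = 0.976 and 0.987). Both were high in D2A1 cells: in culture Khdrbs3 was at 16.3 to 20.2 CPM in D2A1 and 0 to 0.0536 CPM in D2.1 cells, and Stk39 at 73.7 to 82.0 and 0.435 to 0.697 CPM. Hspb1, a small heat shock protein, rose by 1.07 in D2.1 tumors (adjusted p = 0.0295) and had -0.87 in D2A1 tumors (adjusted p = 0.11). In the other direction stood genes that D2.1 cells express on their own. Mapkapk3, a kinase downstream of p38, was at 46.7, 37.9, 58.1 and 51.9 CPM against 46.5 to 68.4 CPM in D2.1 tumors and at 19.7, 13.1, 14.9 and 16.7 CPM against 5.23, 8.27, 7.18, 8.16 and 5.62 CPM in D2A1 tumors. It rose in D2A1 tumors by 1.22 (adjusted p = 0.00156), where the hosts did not overlap, and had -0.23 in D2.1 tumors, while cultured D2.1 cells held 72.7 to 152 CPM and cultured D2A1 cells 2.82 to 3.46 CPM. Cyp7b1, an oxysterol hydroxylase, and Klrb1b, an inhibitory receptor of NK cells, likewise rose in D2A1 tumors by 2.19 and 2.61 (adjusted p = 0.00501 and 0.00399), from means of 0.458 and 0.27 CPM in SCID-beige mice to 2.102 and 1.66 CPM. Their levels in D2.1 tumors were 27.4 to 53.7 and 15.3 to 34.1 CPM over both hosts, and in cultured D2.1 cells 12.5 to 23.4 and 19.4 to 23.3 CPM. The hosts overlapped for Cyp7b1 in both lines and for Klrb1b in D2.1 tumors. Evi2a, a membrane protein of blood cells, had -0.58 and 0.78 (adjusted p = 0.175 and 0.0523), with an interaction of -1.36.

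Receptors of monocytes and lymphocytes differed in direction. Ccr1, a chemokine receptor of monocytes and neutrophils, was at 16.8, 17.005, 16.8 and 11.1 CPM in BALB/c against 20.4, 26.2, 66.1, 19.9 and 25.3 CPM in SCID-beige mice for D2.1 tumors, and at 48.6, 45.8, 38.7 and 70.2 CPM against 19.0, 27.2, 31.0, 25.5 and 25.05 CPM for D2A1 tumors. Both lines separated the hosts, with BALB/c lower in D2.1 and higher in D2A1 tumors. Neither effect passed alone (-1.03 and 0.99, adjusted p = 0.103 and 0.131), and the interaction of -2.02 (95% interval -2.92 to -1.13) had an adjusted p of 0.12. Of 22 myeloid chemokine and receptor genes, Cxcl14 rose in D2.1 tumors (2.17, adjusted p = 0.0192) and Ccr2, the receptor of inflammatory monocytes, in D2A1 tumors (1.25, adjusted p = 0.0121, against -0.05 in D2.1). Of 25 macrophage genes, none rose in D2.1 tumors and Csf1r and Fcgr1 rose in D2A1 tumors, by 1.03 and 1.14 (adjusted p = 0.033 and 0.0247), against 0.17 and 0.06 in D2.1 tumors. Of 19 lymphocyte chemokines and receptors, 7 rose in D2.1 and 3 in D2A1. The 7 became 3 without D2.1 BALB/c replicate 1 or 3, 2 without replicate 4 and 1 without replicates 1 and 4. Cxcr6, a receptor of tissue-resident T cells, was at 10.8, 4.94, 23.5 and 18.0003 CPM against 0.418 to 3.81 CPM in D2.1 tumors and at 14.3 to 19.2 CPM against 15.7 to 28.1 CPM in D2A1 tumors. SCID-beige mice lack T cells, so the level of Cxcr6 does not measure T cells alone. Its effects were 2.86 (adjusted p = 0.00793) and -0.37 (adjusted p = 0.96), with an interaction of 3.23 (95% interval 1.77 to 4.69, adjusted p = 0.12). Ccr7 and Cxcl13, which guide lymphocytes within lymphoid tissue, rose in D2.1 tumors by 1.35 and 3.97 (adjusted p = 0.0364 and 0.0382) and had -0.01 and 0.19 in D2A1 tumors. Of 3 tested lymph node stroma and follicle markers, Cxcl13 and Ltb were called in D2.1 tumors and none in D2A1, with medians of 1.96 and 0.19. Summed over 13 genes carrying the symbols of the whole marker list, levels were 244 to 490 CPM in BALB/c and 166 to 444 CPM in SCID-beige mice for D2.1 tumors, highest in D2.1 BALB/c replicate 4, and their part in these rises was not tested.

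Genes of amino acid synthesis fell in D2.1 tumors of BALB/c hosts. Of 23 tested Atf4 and amino acid synthesis genes, which the stress factor Atf4 raises when amino acids are short, 5 fell in D2.1 tumors and 0 were called in D2A1 tumors. Asns (ENSMUSG00000029752, GRCm38 chr6:7675169-7693254), asparagine synthetase, was at 36.7, 40.1, 32.4 and 47.6 CPM against 131, 57.1, 83.8, 115 and 68.8 CPM in D2.1 tumors, and at 120, 116, 133 and 118 CPM against 123, 148, 102, 91.1 and 108 CPM in D2A1 tumors. The hosts separated in D2.1 and overlapped in D2A1 tumors, with log2 fold changes of -1.22 ± 0.21 (adjusted p = 0.00714) and 0.09 ± 0.21 (adjusted p = 0.978) and an interaction of -1.31 (95% interval -1.93 to -0.69, unadjusted p = 0.000276, adjusted p = 0.148). Slc7a11, the cystine importer, Trib3, Phgdh, the first enzyme of serine synthesis, and Mthfd2, a mitochondrial folate enzyme, also fell, with log2 fold changes of -2.20, -1.24, -1.0004 and -0.69, and had -0.29, -0.33, 0.09 and 0.03 in D2A1 tumors. The interaction was negative for 22 of the 23 genes, at an unadjusted p under 0.05 for 11, with a median of -0.64 that ran from -0.74 to -0.48 when each tumor was left out. No member fell past the threshold without D2.1 BALB/c replicates 1 and 4. Summed over 24 listed genes, they fell by 969 ± 251 CPM in D2.1 tumors and had a difference of -100.18 ± 298 CPM in D2A1 tumors. Of 18 Nrf2 antioxidant genes, Nqo1, Srxn1 and Slc7a11 fell in D2.1 tumors and none in D2A1.

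Cell cycle genes gave no call in either line (0 of 34 tested). Their host effects leaned apart: the median was -0.23 in D2.1 and 0.23 in D2A1, and the interaction was negative for 33 of the 34 genes and at an unadjusted p under 0.05 for 7, with 0 passing after adjustment. Mki67, the proliferation antigen, had 0.11 in D2.1 and 0.30 in D2A1 (adjusted p = 0.935 and 0.897). These genes move together, so 33 of 34 is not 33 separate observations. Hypoxia and glycolysis genes also gave no call (0 of 23), with medians of -0.23 and -0.20.

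**Figure D5:**
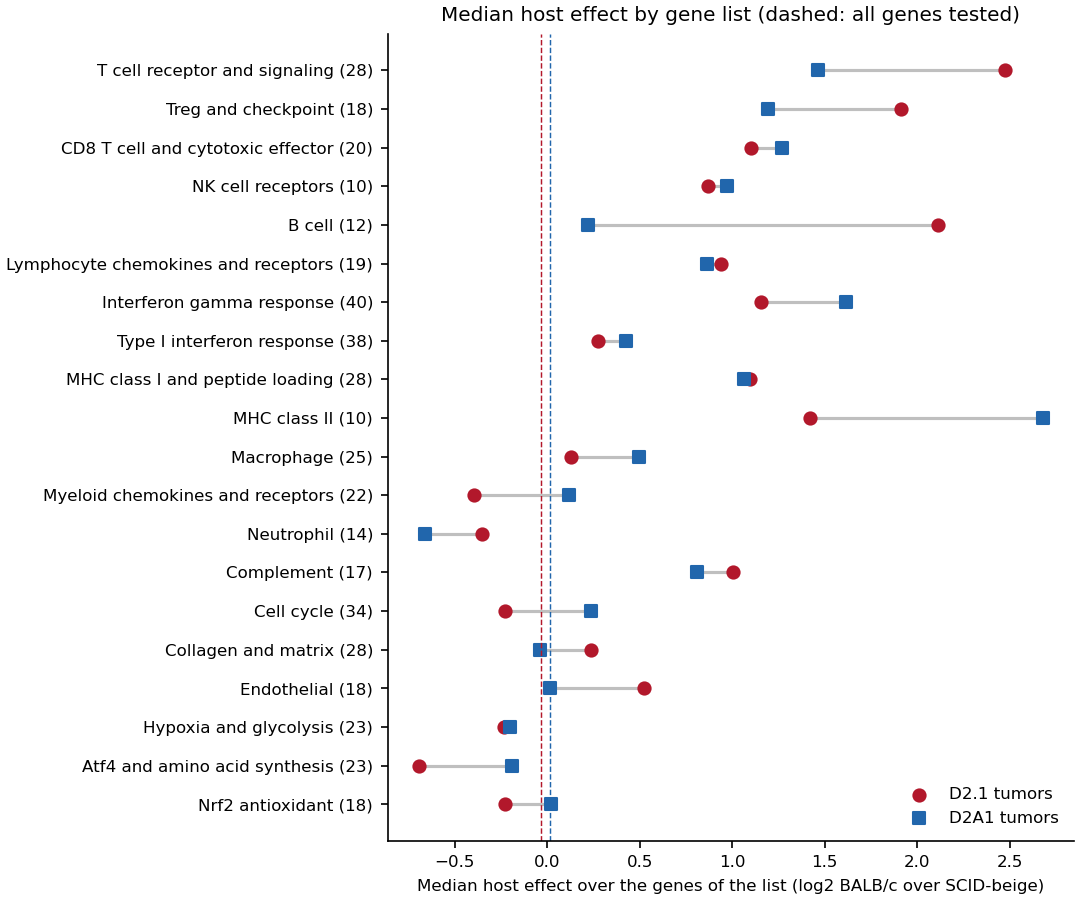
Median host effect (log2 BALB/c over SCID-beige) over the tested genes of each list, in D2.1 tumors (circles) and D2A1 tumors (squares). Genes at the floor are taken at their bound, a lower limit of the size of the effect, and the number of genes is in brackets. Dashed lines are the medians over all genes tested (-0.04 and 0.02). T cell receptor and B cell genes are further right in D2.1 tumors, class II and interferon gamma genes in D2A1 tumors, and class I genes coincide.

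Dkk3, the secreted Wnt modulator that the study follows, was at 292, 243, 251 and 265 CPM in D2.1 tumors from BALB/c mice and at 159, 215.03, 79.3, 58.8 and 246 CPM in those of SCID-beige mice. In D2A1 tumors Dkk3 was at 11.4, 5.95, 7.55 and 9.22 CPM in BALB/c mice and at 10.1, 4.03, 6.49, 11.6 and 5.55 CPM in SCID-beige mice. The hosts overlapped in both lines, in D2.1 tumors by a single SCID-beige tumor, and the lines were far apart in each host, by 4.94 on the log2 scale in BALB/c mice and 4.32 in SCID-beige mice (adjusted p = 7.15e-08 and 4.59e-08). The host effects of 0.79 (adjusted p = 0.33) and 0.18 (adjusted p = 0.976) did not pass, and the interaction of 0.62 had an interval of -0.44 to 1.67. The study reports higher Dkk3 in D2.1 tumors of immunocompetent animals, and no such rise in D2A1. It used analysis of variance of normalized counts and quantitative PCR of the same samples, which differ from the test used here. In a 2-sided exact permutation test the D2.1 host difference of Dkk3 had p = 0.0635, where 4 tumors against 5 allow no p below 0.00794.

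Tarm1, a receptor of neutrophils and macrophages, was the single gene that fell in both lines. It was at 0.161, 0.121, 0.0581 and 0.129 CPM in D2.1 tumors from BALB/c mice and at 0.676, 1.17, 0.806, 0.776 and 1.07 CPM in those of SCID-beige mice, and in D2A1 tumors at 0.522, 0, 0.242 and 0.0555 CPM against 1.03, 1.32, 2.09, 1.79 and 1.14 CPM. The hosts did not overlap in either line, but the BALB/c levels in D2.1 tumors were at the floor of 3 counts. The adjusted p values were 0.0472 and 0.0415, and the call in both lines was kept under 4 of 24 alternatives. Rassf5, a Ras-association protein of lymphocyte adhesion, had the same estimate in both lines, 0.91 and 0.91 (adjusted p = 0.0406 and 0.0444), with an interval of the difference from -0.43 to 0.43. Its call in both lines was also kept under only 4 of 24 alternatives.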

How the data were processed

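Raw read counts per gene, as deposited by the authors, were used for 18 tumors and, as a description normalized separately, for 6 cultures. Sequencing was done at Novogene (NovaSeq), with that company's pipeline or GENAVi used for processing. The submitters' processing notes name STAR and mm10, and the counting program, annotation and strand setting are not given in the sources used here. The deposited FPKM values of the same libraries were not used, and 0 columns lacked a sample. Samples were grouped by their labels, and tumors were treated as separate samples, so that p-values measure the spread between tumors. Of 54532 Ensembl identifiers, 54495 matched GENCODE M21 (GRCm38) for symbols and coordinates, and the rest held 0.00594% of counts.

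Counts were fitted in 1 model of the 4 tumor groups with edgeR 4.0.16 in R 4.3.3 (TMM, default expression filter, robust quasi-likelihood). The contrasts were BALB/c minus SCID-beige in each line, their average and their difference (D2.1 minus D2A1), with Benjamini-Hochberg adjusted p under 0.05. The script was tested on simulated data. Levels are CPM with TMM factors. A group with at most 3 counts in every library is at the floor, and folds against it are lower bounds that cover counting error only. Single levels were tested by 2-sided exact permutation of log2(CPM + 0.5). Lists are described by counts and medians, with no set test. The members, lists and named genes were chosen with earlier results of these data known.

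The text names genes with an adjusted interaction p under 0.05, the 5 smallest interaction p values in each direction among protein-coding genes of at least 5 CPM in their highest group, the 10 largest changes called in both lines, the 5 largest called in 1 line, list members, and genes the study names for the hosts. Tarm1, Rassf5 and the genes whose interval excluded zero were named after their values were seen. No pair of replicates agreed within sampling noise (chi-square per degree of freedom of at least 18.6). Replicate numbers did not pair the tumors: deviations of same-numbered tumors correlated at -0.374 to 0.159 between hosts of a line and at -0.142 to 0.464 between lines of a host, where 7 of 9 exceeded 0.1 but not all. Promoters came from RefSeq (GRCm38.p6), 250 bases before each start. Alternatives were DESeq2 1.42.0, its size factors, other filters, a replicate block, a fold minimum, fits of 1 line, and leaving out tumors. limma 3.58.1, Python 3.11.15, numpy 2.4.6, pandas 2.3.3 and matplotlib 3.10.9 were also used. Some members of the lists are counted but not reported here by name.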

Additional observations from a re-analysis of the deposited data

Results flagged for a closer look

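By Dixon's ratio chance alone gives about 1 in 20 for normally spread values, a rate that does not hold for counts near the floor. Single tumors stood apart from the others of their group in 16 of the 188 groups checked over 47 genes and lists. Among genes these were Cd3e in D2.1 SCID-beige replicate 2 (0.411 CPM), Ctla4 in D2.1 SCID-beige replicate 3 (0.0576 CPM), Ccr1 in D2.1 BALB/c replicate 4 (11.1 CPM) and D2.1 SCID-beige replicate 3 (66.1 CPM), and Rassf5 in D2A1 BALB/c replicate 3 (12.7 CPM). In D2A1 tumors of SCID-beige mice they were Col6a2 in replicate 2 (396 CPM), Cyp7b1 and Zap70 in replicate 1 (1.17 and 8.60 CPM) and Tbx21 in replicate 4 (0.0619 CPM). For Ctla4 and Tbx21 the other tumors of the group were at 0 CPM, so these flags reflect the floor. Among summed lists, interferon gamma genes stood apart in D2A1 SCID-beige replicate 1 (949 CPM), erythroid genes in D2.1 BALB/c replicate 1 (96.3 CPM) and D2A1 SCID-beige replicate 5 (1683 CPM), and adipocyte genes in the latter tumor too (354 CPM). Milk genes stood apart in D2.1 BALB/c replicate 1 (568 CPM), skin genes in D2.1 SCID-beige replicate 2 (7.34 CPM) and muscle genes in D2A1 BALB/c replicate 1 (95.1 CPM).

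The host effect differed between the lines, by the interaction test, for Crmp1 (6.67 on the log2 scale, with a group at the floor), Trac (4.61) and D630003M21Rik (2.39), calls that were lost under 8, 8 and 5 of 24 alternatives.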

How the results depend on the processing

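The number of genes called moved with the processing. For the host effect in D2.1 tumors, the host effect in D2A1 tumors, the host effect averaged over both lines, the interaction of line and host and the host effect shared by both lines, DESeq2 called 659, 431, 823, 105 (79 more positive in D2.1, 26 in D2A1) and 139 genes, and it kept all 63 genes called in both lines. For the interaction, size factors gave 6 and no filter gave 7. Same-numbered tumors did not all deviate together, so numbers were not taken as pairs. With a replicate block the counts were 90 in D2.1, 119 in D2A1, 297 on average, 3 for the interaction and 22 in both lines. Without D2.1 BALB/c replicates 1 and 4 they were 22 in D2.1, 2.2e+02 on average (rounded to 2 digits), 14 in both lines and 0 for the interaction. A fold minimum of 1 on the log2 scale left 304 on average, and fitting D2.1 tumors alone left 133. Leaving out 1 tumor at a time gave 92 (without D2.1 BALB/c replicate 4) to 482 (without D2.1 BALB/c replicate 2) in D2.1, 93 (without D2A1 BALB/c replicate 4) to 291 in D2A1, 322 to 617 on average, 0 to 12 for the interaction and 30 (without D2.1 BALB/c replicate 3) to 79 in both lines. The causes were not tested, beyond fewer tumors giving fewer degrees of freedom. Jchain, Cxcl9, Cd8a, Cd8b1, Cd3d, Cd3g, Igha and Cd6 were called in both lines under all 24 alternatives. The sign reversed for the Krt10, host effect in D2.1 tumors without replicates 1 and 4 (-0.64), and for 2 differences close to zero. The H2-K1, interaction was 0.0025 with DESeq2 and with size factors and -0.23 to 0.105 without single tumors. The Rassf5, interaction was 0.0675 with DESeq2 and size factors, 0.00034 with at least 10 counts, 0.0122 without a filter and -0.17 to 0.136 without single tumors. Depth limits genes near 3 counts, such as Crmp1, Ctla4 and Ifng.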

Other observations

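Complement genes had 6 of 17 members called on average over both lines. Of these 17 genes, C3, the central component, rose in D2.1 tumors (2.02, adjusted p = 0.0174 in edgeR's quasi-likelihood test), and C4b and C3ar1 rose in D2A1 tumors (1.14 and 0.48, adjusted p = 0.0303 and 0.0421), with medians of 1.003 and 0.81. This list gave 0 calls in D2.1 tumors without D2.1 BALB/c replicates 1 and 4, as did the endothelial and dendritic cell lists. Of 18 endothelial genes, Pecam1, an adhesion molecule of vessel walls, rose in D2.1 tumors (0.73, adjusted p = 0.0167) and none rose in D2A1. Of 17 dendritic cell genes 3 rose in D2.1 tumors, Ccr7, Itgae and Zbtb46, with list medians of 0.87 and 0.81. Zbtb46, a factor of conventional dendritic cells, rose there (1.29, adjusted p = 0.0177) and had -0.51 in D2A1 tumors, with an interaction of 1.80 (unadjusted p = 0.00015). Itgax rose in D2A1 tumors (0.92, adjusted p = 0.0252).

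Of 17 circadian clock genes, Nr1d1, a repressor of the clock, fell in D2.1 tumors by 1.30 (adjusted p = 0.00801) and had -0.61 in D2A1 tumors (adjusted p = 0.304). Of 12 bone and mineral matrix genes, Spp1, osteopontin, fell in D2.1 tumors by 1.14 (adjusted p = 0.0306) and had -0.13 in D2A1 tumors. Neutrophil genes had no call in either line, and S100a9 had -1.16 and -1.75 (adjusted p = 0.368 and 0.155). The genes that carry the SCID-beige alleles, Prkdc and Lyst, had host effects of -0.17 and 0.32 in D2.1 tumors and 0.02 and 0.17 in D2A1 tumors, which does not check the alleles, since tumor cells also express these genes.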
